A study of Mus musculus with 10 samples.

Results

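Immediate early genes were followed in whole lungs of P14 mouse pups that had been operated on at P7 to increase pulmonary blood flow (IncPBF), and in lungs of sham pups. The group held 10 genes, taken by their symbols as known members of the class with no threshold on a measured value, though with earlier results of these data known: Fos, Fosb, Jun, Junb, Egr1, Egr2, Atf3, Ier2, Nr4a1 and Dusp1. Each matched 1 row of the table of gene levels, which listed 54532 genes. All pups were wild-type C57/BL6 mice, and in both groups the abdomen was opened under isoflurane as far as its main artery and vein. In the IncPBF group a needle was passed from the abdominal aorta into the inferior vena cava to leave a fistula, while the sham group had no puncture. RNA-sequencing covered 5 lungs a group. The fistula lies outside the chest. The labels give neither litter, sex, day nor hour of collection, nor the interval between death and preservation of the RNA. The paper also describes ultrasound under isoflurane the day before collection, and flushing of collected lungs with saline to clear blood. It does not say separately whether the sequenced lungs had both. No label says that the lungs of a group came from separate litters, so the p-values measure only the spread between these samples.

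Immediate early genes are transcribed within minutes of a stimulus from factors that the cell already holds, without the need for new protein synthesis, and most of their transcripts are short-lived. Growth factors, mechanical stretch, hypoxia, neuronal activity and handling of a tissue are known inducers, acting through the MAP kinases on SRF with its ternary complex partners, and through cAMP or calcium on CREB. Most members encode transcription factors: the Fos and Jun proteins form the AP-1 dimers, the Egr proteins are zinc finger factors and Nr4a1 is an orphan nuclear receptor. Dusp1 encodes a phosphatase that switches the MAP kinases off again. A bulk lung gives the level when its RNA was preserved, averaged over all its cells. That level includes any change between death and preservation, an interval that is not given. Fewer expressing cells cannot be told apart from less RNA per cell.

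Levels were given as FPKM, fragments scaled by gene length and by a library factor. That factor, read from the values, was 1.02 to 1.07 times the fragments on genes in IncPBF lungs and 0.958 to 1.03 times in sham lungs. It was therefore not the plain total of fragments on genes. Scaling to equal totals, given below as an alternative, removes this difference between lungs. Fragments on genes numbered 16103423 to 20318525 per lung in IncPBF and 18171494 to 19400575 per lung in sham. Differences were tested with limma on log2(FPKM + 0.1) over the 15388 genes with a mean of at least 0.5 FPKM, and a gene was called at a Benjamini-Hochberg adjusted p under 0.05. Fold changes are on that scale and understate the change of low genes. Markers of lung were present, with summed FPKM of 5 alveolar type 2 cell genes between 10825 and 16334. Xist, transcribed from the inactive X chromosome, stood at 52.4 to 66.5 FPKM in IncPBF lungs 2 to 5 and at 0.0144 in IncPBF lung 1, against 0.00640 to 0.0770 in the sham lungs. The Y-linked Ddx3y was at 18.6 FPKM in IncPBF lung 1, at 0 to 0.00926 in the other IncPBF lungs and at 21.8 to 24.6 in sham. The surgery and these sex-linked levels therefore separate the same lungs apart from IncPBF lung 1, and each called member is given below with Xist as a covariate as well.

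RefSeq promoter windows (GRCm38.p6), running from 250 bases before to 50 bases after a start site, were matched for 8 of the 10 genes. Egr1 and Ier2 had no window and were not searched. Upstream stretches of 5 members are shown because these members had the clearest contrasts in what follows: Nr4a1 and Atf3 were higher in IncPBF, whereas Fos, Jun and Dusp1 were not called. The starts used for Nr4a1, Atf3 and Dusp1 lie inside the genes' listed spans, as do the whole Nr4a1 and Atf3 stretches and part of the Dusp1 stretch. Each is printed 5′ to 3′ along the gene and ends at the base before the start site, with capitals marking TGACG on either strand (CGTCA where it lies on the opposite one), the core of the cAMP response element bound by CREB and ATF proteins. The stretches are chr15:101266596-101266845 on the plus strand, chr1:191183334-191183583 on the minus strand, chr12:85473640-85473889 on the plus strand, chr4:95052223-95052472 on the minus strand and chr17:26508473-26508722 on the minus strand.
Nr4a1: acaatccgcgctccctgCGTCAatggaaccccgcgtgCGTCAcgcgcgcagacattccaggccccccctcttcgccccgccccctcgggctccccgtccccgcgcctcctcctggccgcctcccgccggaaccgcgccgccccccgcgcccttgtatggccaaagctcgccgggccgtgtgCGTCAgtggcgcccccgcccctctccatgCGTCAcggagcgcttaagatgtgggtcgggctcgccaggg
Atf3: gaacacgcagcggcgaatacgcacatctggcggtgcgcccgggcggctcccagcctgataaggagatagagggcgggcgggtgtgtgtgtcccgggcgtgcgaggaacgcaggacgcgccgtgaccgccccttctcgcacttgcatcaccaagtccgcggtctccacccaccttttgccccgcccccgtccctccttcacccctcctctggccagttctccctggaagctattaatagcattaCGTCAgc
Fos: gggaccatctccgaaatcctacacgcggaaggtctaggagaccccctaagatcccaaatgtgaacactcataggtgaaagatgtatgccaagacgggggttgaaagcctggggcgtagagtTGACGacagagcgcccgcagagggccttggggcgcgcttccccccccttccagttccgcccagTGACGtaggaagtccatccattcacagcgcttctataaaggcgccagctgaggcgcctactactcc
Jun: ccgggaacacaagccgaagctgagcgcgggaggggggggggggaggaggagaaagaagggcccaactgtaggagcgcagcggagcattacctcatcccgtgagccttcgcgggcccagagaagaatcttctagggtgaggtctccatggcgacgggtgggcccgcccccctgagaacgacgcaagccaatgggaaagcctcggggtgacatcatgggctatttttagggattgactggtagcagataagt
Dusp1: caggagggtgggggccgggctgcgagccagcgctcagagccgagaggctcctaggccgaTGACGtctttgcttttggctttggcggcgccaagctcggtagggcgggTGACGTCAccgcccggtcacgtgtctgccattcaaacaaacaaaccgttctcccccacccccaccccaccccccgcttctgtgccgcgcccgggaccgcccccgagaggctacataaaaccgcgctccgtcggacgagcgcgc

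Searched on both strands, TGACG was in a window of 7 of the 8 matched members and of 23.0% of all 27025 genes in the table, or 20.8% of its 32851 windows. Nr4a1 held 4 matches, at 233, 213, 69 and 40 bases before its start, Dusp1 held 3, Fos held 2 and Jun none. The full palindrome TGACGTCA, which contains TGACG on both strands, was found for Dusp1 and for 2.03% of all genes. TATAAA was found for Fos, 33 bases before its start, for Junb, at the RefSeq start used, and for 15.7% of all genes. That Junb start, at base 84978748 on the minus strand, lies upstream of the gene's listed span, which begins at base 84978718 on that strand. The CArG box bound by SRF was found for Egr2 and 1.81% of all, and GCGGGGGCG, the Egr site, for Nr4a1 and Fosb and 3.31% of all. The AP-1 site TGANTCA was found for none of the matched members and for 8.97% of all genes. The search took exact matches only, so near matches such as tgacatca, printed for Jun above, were not counted. These matches describe letters in the window only, and members that rose and members that were not called both held TGACG.

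Of the 10 genes, Nr4a1, Atf3 and Ier2 were higher in the IncPBF lungs and none was lower. Nr4a1 stood 4.34-fold higher, Atf3 1.89-fold and Ier2 1.36-fold. The other 6 members that were tested, Fos, Jun, Junb, Egr1, Egr2 and Dusp1, were not called, and Fosb fell below the filter with a mean of 0.433 FPKM. Over all genes tested, 32.3% were called, 16.1% as higher in IncPBF and 16.2% as lower, so 3 of 9 members called is a share close to that of genes in general. The groups did not overlap for 2 members, Nr4a1 and Atf3, against 23.2% of all genes tested. The median log2 fold change was 0.34 over the 9 members and 0.01 over all genes tested.

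**Figure D1:**
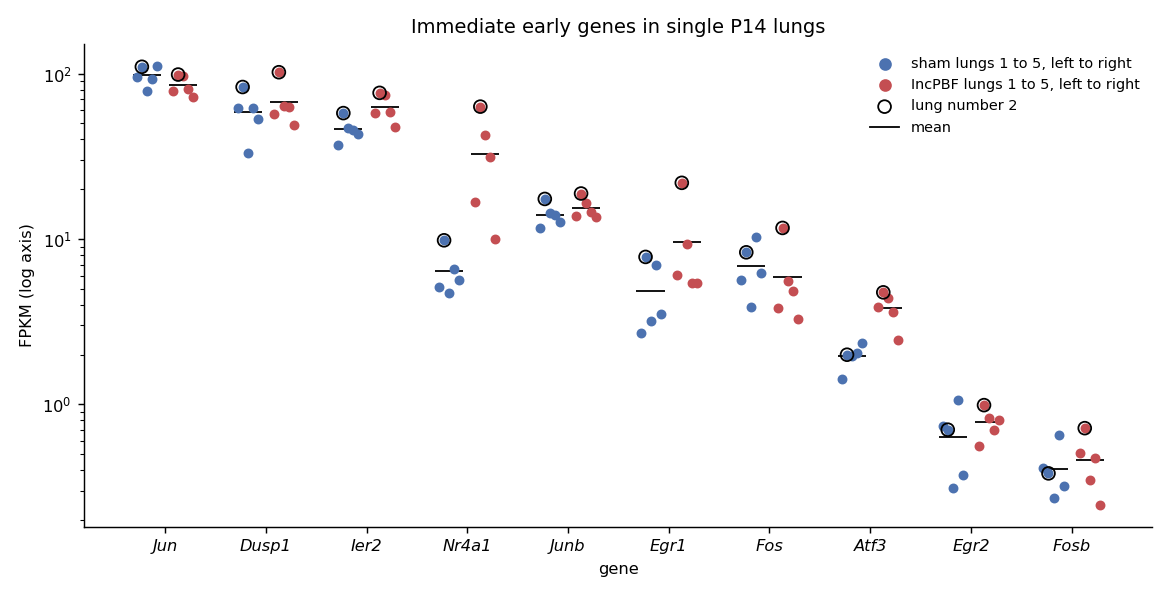
FPKM of the 10 genes in each lung on a log axis, with 5 sham lungs in blue and 5 IncPBF lungs in red, in the order of their numbers from left to right, a line at the mean and a ring around lung number 2 of each group. All IncPBF points of Nr4a1 and Atf3 lie above all sham points, and the ringed IncPBF lung is the highest of its group for all 10 genes.

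Nr4a1 (ENSMUSG00000023034, chr15:101254269-101274795, plus strand), also called Nur77, encodes an orphan nuclear receptor known for its quick induction in vascular cells, macrophages and T cells. It measured 16.7, 63.1, 42.7, 31.3 and 10.05 FPKM in IncPBF lungs 1 to 5, and 5.10, 9.82, 4.71, 6.57 and 5.63 FPKM in sham lungs 1 to 5. The groups did not overlap, though IncPBF lung 5 came within a narrow margin of sham lung 2. The mean was 32.8 ± 21.2 FPKM in IncPBF and 6.37 ± 2.05 in sham (SD, n = 5 each). The log2 fold change was 2.12 with a standard error of 0.43 and a 95% interval of 1.17 to 3.06, at an adjusted p of 0.00360 in limma. An exact two-sided permutation test over all assignments of lungs to groups gave p = 0.00794, the smallest it can give. Between 311 and 4151 fragments per lung lay behind these values, so counting error was small beside the spread among lungs. Leaving out each lung in turn left it called every time, with log2 fold changes of 1.81 to 2.47. With Xist as a covariate the log2 fold change was 1.44, with an adjusted p of 0.294 in limma. IncPBF lung 1, the only IncPBF lung with low Xist, stood at 16.7 FPKM, above all sham lungs, but 1 lung cannot part surgery from sex.

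Atf3 (ENSMUSG00000026628, chr1:191170296-191218039, minus strand) encodes a stress-induced transcription factor of the ATF family. It measured 3.89, 4.76, 4.42, 3.63 and 2.44 FPKM in IncPBF lungs 1 to 5, and 1.42, 2.00, 1.95, 2.04 and 2.35 FPKM in the sham lungs. Again no IncPBF lung lay at or below a sham lung, with IncPBF lung 5 just above sham lung 5. The log2 fold change was 0.92 with a standard error of 0.18 and a 95% interval of 0.53 to 1.31, at an adjusted p of 0.00266 in limma. The exact permutation p was 0.00794, again the smallest possible. The level was low, with 109 to 192 fragments per IncPBF lung and 55 to 88 per sham lung. It was called without each lung in turn, with log2 fold changes of 0.82 to 1.07. With Xist as a covariate its log2 fold change was 0.96, close to the value without it, but the adjusted p was 0.116 in limma (0.0120 before adjustment).

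Ier2 (ENSMUSG00000053560, chr8:84661331-84662852, minus strand) encodes a small nuclear protein induced by growth factors. It measured 58.0, 76.5, 74.6, 58.3 and 47.3 FPKM in IncPBF lungs 1 to 5, against 37.2, 57.7, 46.6, 45.3 and 43.1 FPKM in sham. In 4 of 5 IncPBF lungs it exceeded all sham lungs, with lungs 1 and 4 only just above sham lung 2, and IncPBF lung 5 lay inside the sham range. The log2 fold change was 0.44 with a standard error of 0.14 and an adjusted p of 0.0350 in limma, and the exact permutation p was 0.0159. The call was the least secure of the 3: it was lost in 6 of 10 fits that left out 1 lung, without IncPBF lungs 2, 3 or 4 or sham lungs 1, 4 or 5, with adjusted p up to 0.0820 in limma. With Xist as a covariate the log2 fold change was 0.34, at an adjusted p of 0.487 in limma.

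**Figure D2:**
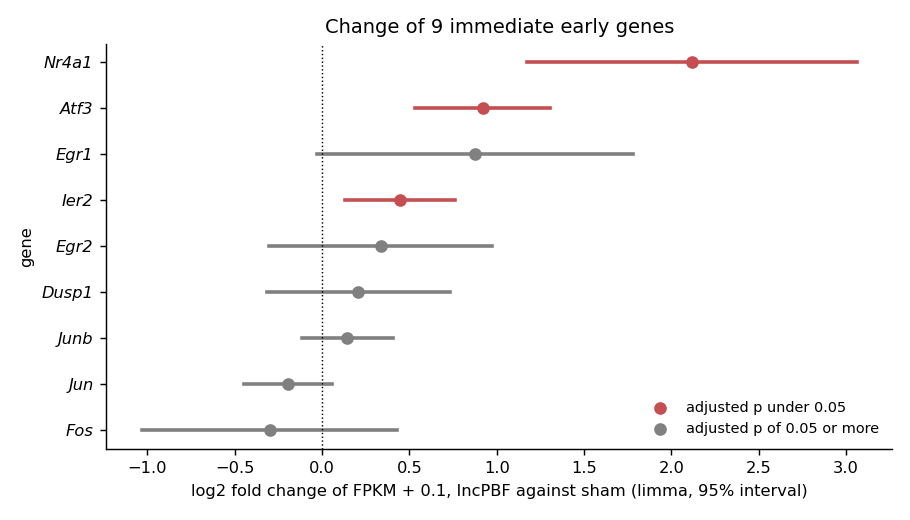
Log2 fold change of the 9 tested genes, IncPBF against sham, as limma estimates (points) with 95% intervals (lines), in red where the adjusted p was under 0.05 and in grey otherwise. Nr4a1 has the largest estimate at 2.12, and the intervals of Jun and Fos span 0 with estimates below it.

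The AP-1 genes were not called. Fos, which encodes the partner that Jun needs for its stronger dimer, measured 3.85, 11.7, 5.59, 4.85 and 3.30 FPKM in IncPBF lungs 1 to 5. In sham lungs 1 to 5 it was 5.64, 8.30, 3.89, 10.3 and 6.20 FPKM. The groups overlapped over almost their whole range, with IncPBF lung 2 above all others. The log2 fold change of Fos was -0.30 with a 95% interval of -1.03 to 0.43, and an adjusted p of 0.526 in limma, so the interval takes in a large fall as well as a modest rise. Leaving out each lung in turn gave estimates of -0.58 to -0.13.

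Jun, the most abundant of the 10 genes, measured 78.3, 98.7, 96.8, 80.6 and 72.1 FPKM in IncPBF lungs and 95.9, 109.9, 78.1, 93.3 and 111.2 FPKM in sham lungs. IncPBF lung 5 lay below all sham lungs, and the other IncPBF lungs lay within the sham range. Its log2 fold change was -0.19 with a 95% interval of -0.45 to 0.06, and an adjusted p of 0.220 in limma. The gene shares 689 bases with the antisense gene Junos, which had a mean of 1.21 FPKM in IncPBF and 1.20 in sham. Whether fragments were counted by strand is not given in the sources used here.

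Junb, whose product is the weaker activator of the Jun family, measured 13.7, 18.8, 16.4, 14.5 and 13.5 FPKM in IncPBF lungs and 11.6, 17.5, 14.3, 13.9 and 12.6 FPKM in sham. The groups overlapped, and the log2 fold change was 0.14 with a 95% interval of -0.12 to 0.40 and an adjusted p of 0.382 in limma. It shares 351 bases with Prdx2, a peroxidase gene on the other strand that was itself higher in IncPBF by 0.44 on the log2 scale (adjusted p = 0.000623, limma), and fragments of the shared bases cannot be assigned here. Fosb, which encodes a Fos relative best known from neurons, was low but detected in every lung, with 32 to 84 fragments per lung. It measured 0.247 to 0.718 FPKM in IncPBF against 0.272 to 0.654 in sham. Its difference in mean log2(FPKM + 0.1) was 0.12, with an exact permutation p of 0.659.

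The ratio of Jun to Fos within a lung had a median of 17.3 in IncPBF and 17.0 in sham, with ranges of 8.46 to 21.9 and 9.08 to 20.1. The groups overlapped throughout.

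Among the Egr genes, Egr1, a zinc finger factor induced by growth factors and shear stress, measured 6.08, 21.8, 9.27, 5.40 and 5.42 FPKM in IncPBF lungs. The sham lungs measured 2.71, 7.79, 3.20, 6.92 and 3.54 FPKM. Only IncPBF lungs 2 and 3 exceeded the sham range, and the other 3 lay inside it. The log2 fold change was 0.87, near that of Atf3, but with a standard error of 0.41 its 95% interval ran from -0.03 to 1.78 and the adjusted p was 0.127 in limma. Estimates without each lung in turn were 0.52 to 1.08. Egr2, known for its part in myelinating glia and in lymphocytes, measured 0.563, 0.989, 0.828, 0.699 and 0.808 FPKM in IncPBF lungs against 0.738, 0.703, 0.313, 1.06 and 0.372 in sham. These values rested on 20 to 69 fragments per lung, and the log2 fold change of 0.34 had a 95% interval of -0.30 to 0.97 and an adjusted p of 0.410 in limma.

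Dusp1, whose product dephosphorylates p38, JNK and ERK kinases, measured 57.2, 101.9, 63.8, 62.8 and 49.0 FPKM in IncPBF lungs. In sham lungs it was 61.8, 82.9, 33.2, 61.8 and 53.0 FPKM. Apart from IncPBF lung 2, all IncPBF lungs lay within the sham range. Its log2 fold change was 0.21 with a 95% interval of -0.32 to 0.73 and an adjusted p of 0.542 in limma. It was 0.04 without IncPBF lung 2 and 0.02 without sham lung 3, the lowest of the estimates that left out 1 lung, which reached 0.35. Glucocorticoids are known to induce Dusp1 besides the early response.

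Ranked by mean FPKM over the 10 lungs, which is scaled by gene length, the order was Jun at 91.5, Dusp1 at 62.8, Ier2 at 54.5, Nr4a1 at 19.6, Junb at 14.7, Egr1 at 7.22, Fos at 6.36, Atf3 at 2.89, Egr2 at 0.708 and Fosb at 0.433. Several neighbours exchanged places between lungs: Dusp1 was above Ier2 in 7 of 10. Other neighbours exchanged places between the groups. Nr4a1 was below Junb in all 5 sham lungs and above it in 4 of 5 IncPBF lungs, and Egr1 was below Fos in all 5 sham lungs and above it in all 5 IncPBF lungs. The steps from Ier2 to Nr4a1, from Atf3 to Egr2 and from Egr2 to Fosb held in each of the 10 lungs.

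The members varied more between lungs of 1 group than most genes. The pooled within-group SD of log2(FPKM + 0.1) had a median of 0.44 over the 9 tested members and 0.15 over all tested genes, and all 9 were above that second value. Nr4a1 stood at percentile 95.5 of all tested genes, Egr1 at 95.2, Fos at 93.4 and Egr2 at 90.3, while Jun, the least variable, stood at 66.1. In Nr4a1 the SD was 1.06 in IncPBF and 0.41 in sham, and the SD was larger in IncPBF for 6 of the 10 members, or 3 of 10 without IncPBF lung 2. The median SD of the tested members was 0.36 in IncPBF and 0.41 in sham, and that of all tested genes 0.13 and 0.17. For Egr2 and Fosb, counting error alone gives an SD of 0.23 and 0.21, below their pooled SDs of 0.48 and 0.43.

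Much of this spread was shared between the genes. IncPBF lung 2 had the highest value of its group in 10 of 10 members, while it was highest in 15.5% of all tested genes, and its members lay a median of 0.48 above their group means on the log2 scale. IncPBF lung 5 had the lowest value in 8 of 10, with a median of -0.49. In the sham group, lung 2 was highest in 5 members (Junb, Egr1, Ier2, Nr4a1 and Dusp1), lung 4 in Fos, Fosb and Egr2, and lung 3 was lowest in 6. Over all tested genes each lung's median deviation was at most 0.02 in size, on values already scaled by library. Leaving IncPBF lung 2 out lowered the IncPBF SD of Fos from 0.70 to 0.33, that of Egr1 from 0.85 to 0.36 and that of Dusp1 from 0.39 to 0.17, whereas that of Nr4a1 went from 1.06 to 0.93.

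**Figure D3:**
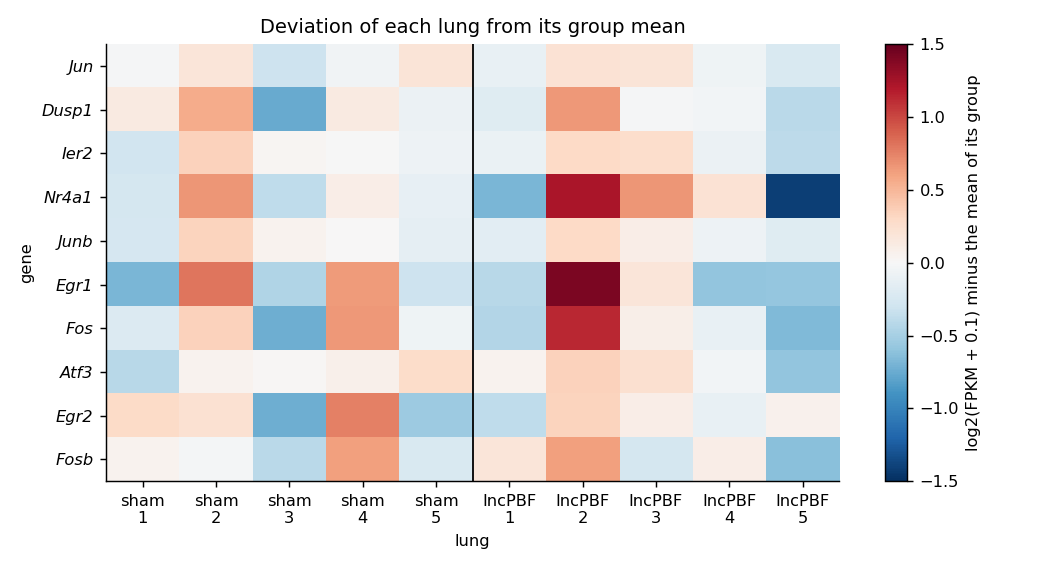
Deviation of log2(FPKM + 0.1) from the mean of its group for each of the 10 genes (rows) in each lung (columns), red above and blue below the group mean, with a line between the sham and IncPBF groups. The column of IncPBF lung 2 is red in all 10 rows, and that of IncPBF lung 5 is blue in most.

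IncPBF lung 2 also differed in some marker genes. Its summed FPKM of 5 red cell genes was 1927, the highest of its group (250.9 to 1927) and within the sham range of 1458 to 2442. Its sum of 5 heart muscle genes was 15.2 FPKM, against 0.893 to 3.55 in the sham lungs, but IncPBF lung 4, whose early genes had a median deviation of -0.07, held 17.1 and the other IncPBF lungs 0.634 to 1.41. Its sum of 5 alveolar type 2 cell genes, 10825 FPKM, was the lowest of its group (10825 to 13422) and below the sham range of 13093 to 16334. Its sum of 5 macrophage genes, 33.3 FPKM, was the lowest of its group, and its sum of 8 heat shock genes, 385.7 FPKM, was the median of its group. Their part in the levels of the early genes was not tested. With both lungs numbered 2 left out, a choice made after the values were seen, Nr4a1, Atf3 and Ier2 stayed called, with log2 fold changes of 1.98, 0.85 and 0.45 and adjusted p of 0.00835, 0.0169 and 0.0367 in limma.

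Ratios between members within a lung were computed for all 45 pairs after the values had been seen, and are given as a description. They reduce a shift shared by the genes of a lung only as far as it is of equal size, and the deviation of IncPBF lung 2 ran from 0.22 for Jun to 1.41 for Egr1. An exact permutation p was computed for each pair but is not used, as pairs were singled out by their values. The groups did not overlap for 10 pairs, while single genes did not overlap for 23.2% of all tested, and the share among pairs of genes in general was not computed. Nr4a1, whose own groups do not overlap, was in 6 of the 10, always as the gene higher in IncPBF, and the others were Egr1 over Fos, Atf3 over Jun, Ier2 over Jun and Ier2 over Junb. Egr1 over Fos was 1.58, 1.87, 1.66, 1.11 and 1.65 in IncPBF lungs 1 to 5 and 0.480, 0.938, 0.823, 0.673 and 0.570 in sham lungs. The medians, 1.65 and 0.673, were 2.44-fold apart, although neither Egr1 nor Fos was called by itself. Nr4a1 over Fos was 4.35, 5.41, 7.64, 6.45 and 3.05 in IncPBF and 0.904, 1.18, 1.21, 0.640 and 0.908 in sham, 5.96-fold apart at the medians. Atf3 over Fos overlapped by 1 lung, with medians of 0.748 and 0.252.

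**Figure D4:**
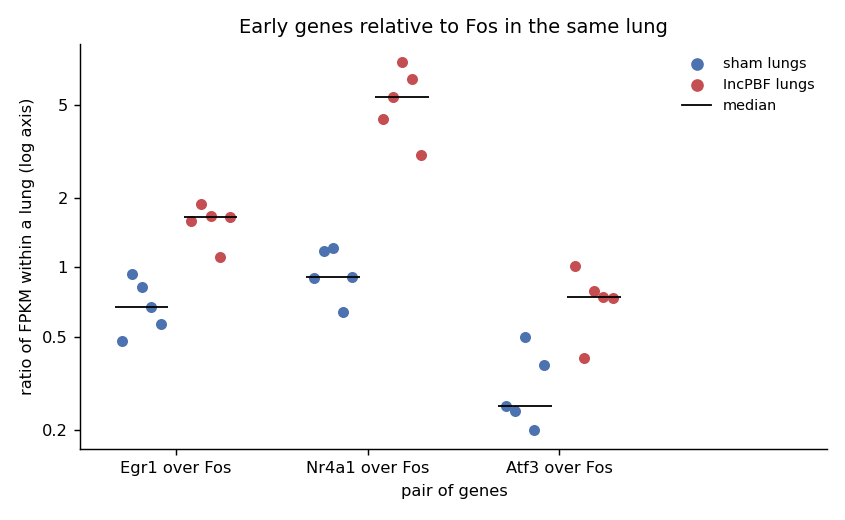
Ratio of the FPKM of Egr1, Nr4a1 and Atf3 to that of Fos within each lung on a log axis, with sham lungs in blue, IncPBF lungs in red and a line at the median. The groups are apart for Egr1 (medians 1.65 and 0.673) and Nr4a1, and overlap for Atf3.

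Outside the 10 genes, the genes whose deviations from the group means ran most closely with the members' mean deviation over the 10 lungs were Cyr61 (Pearson r = 0.967), Plk2 (0.956), Egr3 (0.950), Spry4 (0.944) and Ier3 (0.941). These are descriptions over 10 lungs, which share IncPBF lung 2 as an extreme point. Cyr61 encodes a matricellular protein and is a known target of YAP and SRF, Plk2 encodes a polo-like kinase, and Spry4 an inhibitor of receptor tyrosine kinase signalling. Plk2 was 53.2 ± 13.4 FPKM in IncPBF and 30.02 ± 5.72 in sham, a log2 fold change of 0.81 (SE 0.17, adjusted p = 0.00464, limma). Spry4 was 19.9 ± 3.17 against 12.5 ± 1.82, a log2 fold change of 0.66 (adjusted p = 0.00192, limma). Cyr61, Egr3 and Ier3 were not called, with log2 fold changes of 0.89, 0.77 and -0.39. Egr3, at a mean of 0.509 FPKM, only just passed the filter. Cyr61 was called higher when scaled to equal totals of fragments (adjusted p = 0.0431, limma). Cyr61 and Egr3 were called higher with voom, limma's weighting of fragment counts (adjusted p = 0.0230 and 0.0321, limma). Ier3 was called lower without the lungs numbered 2 (adjusted p = 0.0180, limma).

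A wider list of 50 other early response genes went both ways. Of the 48 tested, 10 were higher in IncPBF, 12 were lower and 26 were not called, with a median log2 fold change of 0.01. That is 45.8% called, against 32.3% of all genes tested. The balance of the list depended on the scaling, with 15 higher and 9 lower at equal totals of fragments and 16 higher and 11 lower with voom, limma's weighting of fragment counts. With Xist as a covariate 0 were higher and 2 lower, Cebpd and Gadd45b, and 10 had an unadjusted p under 0.05 in limma. The largest called rises were Plk2, Nr4a3 and Maff. Nr4a3, a nuclear receptor of the same family as Nr4a1, was 1.26 ± 0.367 against 0.680 ± 0.154 FPKM (log2 fold change 0.79, adjusted p = 0.0144, limma). Nr4a2, the remaining family member, also rose, from 2.41 ± 0.301 in sham to 3.94 ± 1.35 FPKM (0.63, adjusted p = 0.0318, limma), so that all 3 Nr4a genes were called higher over the 10 lungs. None of the 3 was called with Xist as a covariate, where Nr4a2 and Nr4a3 had log2 fold changes of 0.14 and 0.44 (adjusted p = 0.829 and 0.521, limma). Without the lungs numbered 2, Nr4a2 and Nr4a3 had adjusted p of 0.110 and 0.0633 in limma, and Nr4a1 stayed called. Maff, a small Maf protein gene, rose 1.64-fold, to 14.003 ± 1.67 from 8.48 ± 1.12 FPKM (0.72, adjusted p = 0.000548, limma). With the Xist covariate Maff, Plk2 and Spry4 had log2 fold changes of 0.58, 0.53 and 0.43, with adjusted p of 0.0998, 0.334 and 0.246 in limma.

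The largest falls were Cebpd, Gadd45b and Dusp4. Cebpd, a C/EBP transcription factor gene, fell by 1.05 on the log2 scale, to 12.7 ± 1.19 from 26.6 ± 3.86 FPKM (adjusted p = 5.0e-05, limma). Gadd45b, a stress and growth arrest gene, was 32.3 ± 4.10 against 59.0 ± 7.81 FPKM, and Dusp4, a nuclear MAP kinase phosphatase, 7.02 ± 1.60 against 11.2 ± 1.00 FPKM, with adjusted p of 0.000164 and 0.00354 in limma. The MAP kinase phosphatases thus differed among themselves, as Dusp6, which acts on ERK, rose from 34.7 ± 5.32 to 50.8 ± 3.52 FPKM (adjusted p = 0.00174, limma). With the Xist covariate Dusp4 and Dusp6 were not called (-0.74 and 0.60, adjusted p = 0.127 and 0.0833, limma). Egr4 was listed at 0 in all lungs. IncPBF lung 2 was the highest of its group in 22 of the 48 genes.

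**Figure D5:**
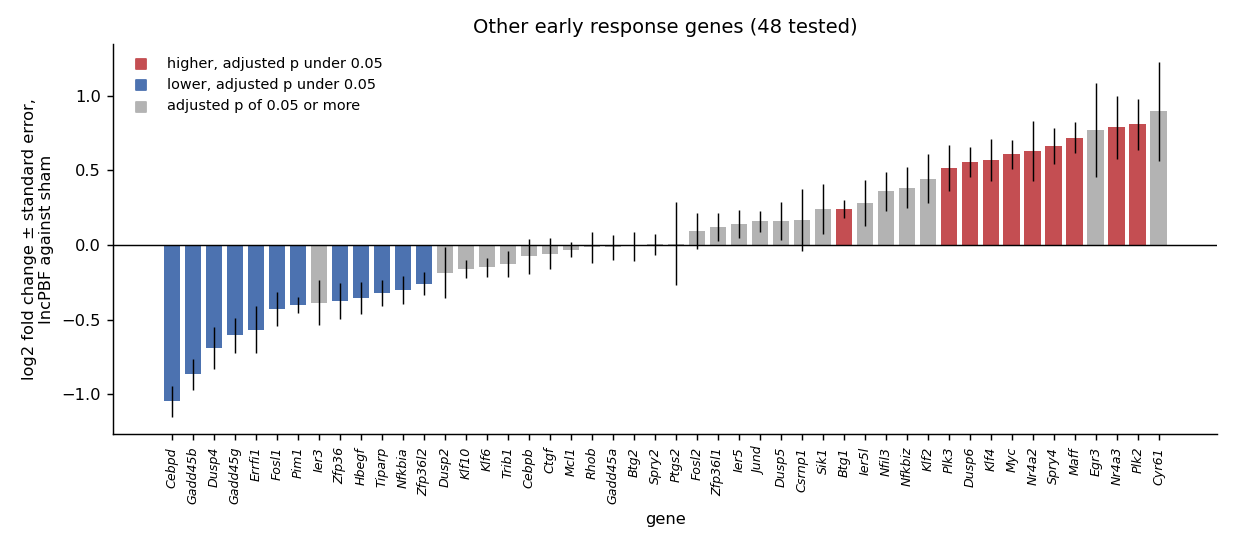
Log2 fold change with its standard error for the 48 tested genes of the wider early response list, IncPBF against sham, in red where called higher, in blue where called lower and in grey where not called. The list runs from Cebpd at -1.05 to Cyr61 at 0.89, with 10 genes called higher and 12 lower.

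Of 23 genes for the kinases and factors that act on the members, all tested, 39.1% were called, against 32.3% of all genes tested. Of the 23, 3 were higher, 6 were lower and 14 were not called, with a median log2 fold change of 0.01. This balance turned with the scaling, to 8 higher and 3 lower at equal totals and 7 higher and 3 lower with voom, and with the Xist covariate 1 gene, Srf, was called, as higher. Srf, which encodes the factor that binds the CArG box, rose from 19.1 ± 1.19 to 27.2 ± 1.58 FPKM (log2 fold change 0.51, adjusted p = 0.000113, limma). Crem, a cAMP response modulator gene, and Mapk8, the JNK1 gene, rose by 0.28 and 0.27. The largest falls were in Rps6ka5 (-0.57), Rps6ka1 (-0.47) and Mapk14 (-0.30), genes of the kinases MSK1, RSK1 and p38 alpha. Of 12 further basic leucine zipper genes, partners of the AP-1 proteins, 50% were called, against the same 32.3%. Of the 12, 3 were higher, 3 lower and 6 not called, with a median log2 fold change of -0.07. Batf, Maf and Atf4 rose by 0.51, 0.49 and 0.33, and the fallers were Jdp2, a repressor that dimerises with Jun (-0.68), Atf7 (-0.27) and Mafg (-0.23). Mafg was not called at equal totals, under quantile normalization or with voom, and with the Xist covariate Jdp2 alone of the 12 was called.

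Lists for stress of the tissue and for steroid signalling were read beside these. Of the heat shock genes 12.5% were called and of the glucocorticoid response genes 71.4%, against 32.3% of all genes tested. Of 8 heat shock genes, only Hspb1, a small heat shock protein gene, was called, at 36.2 ± 2.59 FPKM in IncPBF and 64.3 ± 8.32 in sham (log2 fold change -0.82, adjusted p = 8.7e-05, limma). Hspa1a, Hspa1b, Hsph1, Dnajb1, Hsp90aa1, Hspa8 and Bag3 were not called, with log2 fold changes of 0.06, -0.23, 0.06, 0.11, 0.05, 0.06 and -0.05. Dnajb1 was called higher at equal totals and with voom (0.19 in both), Bag3 turned to 0.03 under both, and Hspa1a to -0.0043 under quantile normalization. With the Xist covariate Hspa1a, Hsp90aa1, Hspa8 and Bag3 turned to -0.21, -0.07, -0.09 and 0.05, and none of these was called. Of 7 genes of the glucocorticoid response, 5 were lower in IncPBF, with log2 fold changes of -5.28 for Zbtb16, -2.63 for Fkbp5, -1.63 for Tsc22d3, -1.39 for Klf9 and -0.60 for Per1. Sgk1 at 0.33 and the receptor gene Nr3c1 at -0.01 were not called. Of these calls Per1 was lost at equal totals, with the Xist covariate and without the lungs numbered 2. Sgk1 was called higher at equal totals, under quantile normalization and with voom (0.41, 0.33 and 0.41). Nr3c1 turned to 0.07 at equal totals and with voom, to 0.0074 under quantile normalization and to 0.08 with the Xist covariate. Dusp1, which also responds to glucocorticoids, was not called, as given above.

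Markers of cell types moved between the groups as well. All 5 alveolar type 1 cell genes, 3 of 5 type 2 cell genes and 3 of 5 endothelial genes were lower in IncPBF, and 3 of 5 smooth muscle genes were higher, with summed smooth muscle levels of 277.3 to 548.7 FPKM in IncPBF and 86.1 to 216.2 in sham. Red cell genes were lower for 3 of 5, and fibroblast genes split into 2 higher and 1 lower. Over all genes tested, 16.1% were called higher and 16.2% lower. None of the tested airway (4), macrophage (5), neutrophil (4), lymphocyte (5), heart muscle (3) or thymus (1) markers was called. The summed airway markers varied widely, from 132.9 to 12202 FPKM in the sham lungs and from 4919 to 10452 in IncPBF. With the Xist covariate the calls for type 1 and type 2 cell, endothelial, smooth muscle and red cell genes fell to 0 of 5 each. Under that fit 741 of the 15388 genes tested were called. Which cells the members were expressed in, and the part of cell composition in their levels, was not tested.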

How the data were processed

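Whole lungs of 5 IncPBF and 5 sham mice were profiled by RNA-sequencing of total RNA with NEBNext libraries. The authors deposited 1 table of FPKM values per gene and lung, with the gene length in bases; the submitters' processing notes name Bowtie 0.12.2 and the builds GRCm38, mm10 and hg38, without saying which step used each. The counting software is not given in the sources used here. Gene positions matched GENCODE M21 on GRCm38 for 98.3% of shared genes. The IncPBF columns carry another abbreviation (vo) than the sample titles (ipf) and were assigned to the group only; lung numbers are those of the column names.

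In 100% of values FPKM times length came out as whole fragments (tolerance 0.02), so fragments were recovered. FPKM was tested as log2(FPKM + 0.1) with limma 3.58.1 in R 4.3.3 (lmFit, eBayes with trend) over genes with a mean of at least 0.5 FPKM, with Benjamini-Hochberg adjustment over all genes tested. Single genes were also tested by exact two-sided permutation. Tables were handled in Python 3.11.15. The fit was tested on simulated data. No 2 libraries agreed within sampling noise.

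The 10 members and the gene lists were chosen with earlier results of these data known. Named were all members, the 3 largest called rises and falls of each list, every gene of the lists of 8 or fewer other than cell type marker lists, the 5 genes closest to the members' mean deviation, and Xist and Ddx3y; Nr4a2, Dusp6, Egr4, Junos and Prdx2, the within-lung ratios, the lists under each scaling and the attention to IncPBF lung 2 were added after values were seen.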

Additional observations from a re-analysis of the deposited data

Results flagged for a closer look

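Fos, Egr1 and Dusp1 each had 1 IncPBF lung far from the other 4, and in each it was lung 2: 11.7 FPKM for Fos, 21.8 FPKM for Egr1 and 101.9 FPKM for Dusp1. The gap to the next lung took 0.726, 0.765 and 0.720 of the group's whole range, over Dixon's 95% critical value for 5 values. The 10 genes gave 20 such group tests, of which chance alone would mark about 1 in 20, and genes of 1 lung are not independent. On the log2(FPKM + 0.1) scale of the tests, a check added after seeing the data, the gaps took 0.584, 0.615 and 0.639 of the range, and 0 of 20 groups passed the critical value. Without IncPBF lung 2 the log2 fold changes of Fos, Egr1 and Dusp1 were -0.58, 0.52 and 0.04, and none was called.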

How the results depend on the processing

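Nr4a1 and Atf3 were called in 21 of 22 alternatives and Ier2 in 13 of 22. With Xist as a covariate, 741 genes were called (328 higher, 413 lower; 3173 at an unadjusted p under 0.05, limma), against 4970 (2480 higher, 2490 lower) without it. It left 0 members (1 unadjusted), 2 genes of the early response list (both lower; 10 unadjusted) and 1 upstream gene (higher; 6 unadjusted), and it turned the estimates of Junb to -0.011 and Egr2 to -0.012; as surgery and Xist separate all lungs but 1 alike, they cannot be told apart. Leaving out 1 lung at a time gave 3869 to 5234 genes, 2 to 3 members, 17 to 24 early response genes and 5 to 9 upstream genes, the 5 without IncPBF lung 4. With both lungs numbered 2 left out, chosen after seeing the data, 5 upstream genes were called; the cause was not tested. Scaling to equal totals of fragments called 5338 genes (3559 higher, 1779 lower) and voom on recovered fragments 5516 (3653 higher, 1863 lower). Without a filter, Fosb differed by 0.12 on the log2 scale (adjusted p = 0.832, limma).

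Over all genes tested, deviations of lungs with the same number correlated at -0.07 to 0.09, and 2 of 10 lungs correlated best with their own number. For the members, lung 2 had the highest median deviation in both groups, 0.48 in IncPBF and 0.34 in sham. Whether lungs of the same number share a factor that acts on the members was not tested. With the replicate number as a block, 4872 genes and 4 members were called, Egr1 being added (log2 fold change 0.87, adjusted p = 0.0419, limma).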
